A study of Caenorhabditis elegans with 165 samples.

Results

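The clec genes of the nematode Caenorhabditis elegans, which encode proteins with a C-type lectin-like domain, were followed through 12 RNA-seq libraries of whole worms. A gene was a member when its symbol in the WBcel235 annotation, found through its locus tag, was clec followed by a number. The count tables held 253 such genes among 20389 genes, of which 238 are annotated as protein-coding and 15 as pseudogenes. The annotation has 10 further symbols of this form that were not analysed here.

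C-type lectin-like domains are compact folds, some of which bind sugars with the help of calcium, and many clec proteins of C. elegans carry a signal for secretion. Many clec genes are expressed in the intestine, the organ that meets ingested bacteria, and many are induced when worms feed on pathogens, so that they are widely used as readouts of nematode immunity. Several signalling routes act upstream of them, among them the p38 MAP kinase cascade that ends in PMK-1 and the TGF-beta-related DBL-1 pathway.

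The libraries came from 3 strains with 4 libraries each, made from total RNA. N2 is the wild-type laboratory strain. Strain 15eh1, titled X;V and called X-V here, has the X chromosome joined to chromosome V, and strain YPT41, titled X;II and called X-II here, has X joined to chromosome II. The sample labels give the stage as L1-L3 larvae and the design text as L3 larvae, with the same entry for all 3 strains, and no label says that replicates came from separate cultures or which chromosome end was joined. Each fusion is represented by 1 strain, so the fusion cannot be told apart from other differences in strain background. The question put to these genes was whether their RNA level differs between each fusion strain and N2. The study also deposited ChIP-seq samples, which were not analysed here.

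The libraries held between 8237095 and 31234047 counts assigned to genes. Replicate 1 of every strain stood apart before any comparison. The 6 yolk protein genes vit-1 to vit-6, which adult hermaphrodites express in the intestine, summed to between 68147 and 125809 CPM (counts-per-million, relative to all counts assigned to genes) in replicate 1 and to at most 449 CPM in replicates 2 to 4. A list of 17 germline genes summed to between 6338 and 19172 CPM in replicate 1 and to between 180 and 271 CPM in the other libraries. Within replicate 1 both sums were lowest in X-II. A list of 11 sperm genes went the other way, with 106 CPM in X-II replicate 1, 40.5 CPM in N2 and 28.7 CPM in X-V. In replicates 2 to 4 the sperm genes summed to at most 2.67 CPM. Markers of the intestine, 10 of 11 listed genes being in the files, were readily detected in every library, with sums of 8322 to 16049 CPM in N2, 7054 to 13146 CPM in X-V and 13261 to 20514 CPM in X-II. As whole worms were used, fewer cells of a type and less RNA per cell cannot be told apart.

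The family was dominated by a single gene. All clec genes together took 5268, 4436, 4565 and 6770 CPM in N2 replicates 1 to 4, 5982, 4233, 4304 and 6280 CPM in X-V, and 6266, 4679, 5356 and 8954 CPM in X-II. The strains overlapped in this sum, and X-II replicate 4 held the highest. clec-63, on chromosome II, supplied between 38.4% and 64.3% of all clec counts in a library, and the 10 clec genes with the highest levels supplied between 75.6% and 85.3%. Per kilobase of annotated gene span, introns included, clec-63 averaged 1644 CPM over the 12 libraries, with a range of 1117 to 3181. The next were clec-1 at 204, clec-87 at 176, clec-83 at 144 and clec-50 at 89.2 CPM per kilobase. The lowest library of clec-63 lay above the highest library of each of these 4 genes on that scale, which were 456, 911, 276 and 176. The 4 genes themselves overlapped over libraries, and clec-87 spanned from 3.36 to 911.

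**Figure D1:**
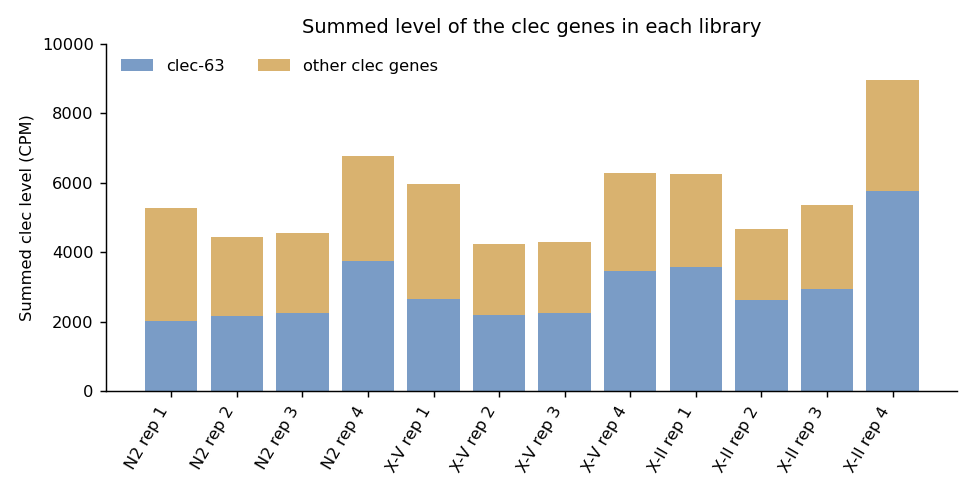
Summed level of the 253 clec genes in CPM (vertical axis, linear from 0) in each of the 12 libraries (horizontal axis), with clec-63 in blue and all other clec genes in tan. clec-63 makes up 38.4% to 64.3% of each bar, and X-II replicate 4 has the tallest bar at 8954 CPM.

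Most members were silent or nearly so in these worms. Of the 253 genes, 21 had 0 counts in all 12 libraries and 139 had counts but did not pass the filter. The filter asks for a minimum CPM in at least 4 libraries, so that clec-25 failed it with counts in all 12. Of the 139 genes, 89 had fewer than 20 counts over all libraries, while others such as clec-223, with 3073 counts, were counted almost entirely in the 3 replicate 1 libraries. The remaining 93 passed the filter and were tested, and none of the 15 pseudogenes was among them. A mean of at least 1 CPM was reached by 85 genes and of at least 10 CPM by 44. Between 133 and 210 members had at least 1 count in a library. A gene that passed only because 1 strain was high had to differ, so counts over the 93 describe the tested members and not the family.

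The genes lay unevenly over the genome, with 91 on V, 57 on IV, 51 on II, 36 on I, 15 on III and 3 on X. Many stood in runs, here defined as clec genes at most 2 annotated genes apart. The longest runs held 13 genes each, clec-67 to clec-77 with clec-79 and clec-174 on IV and 13 of the genes clec-22 to clec-40 on V. In the run on IV 8 of 13 genes reached a mean of 1 CPM and in that on V 5 of 13. Some runs were expressed throughout, such as clec-62 to clec-66 on II with 5 of 5 genes and clec-82 to clec-85 on IV with 4 of 4. Others were not, with 0 of 8 genes for clec-127 to clec-134 on II and 0 of 7 for clec-93 to clec-99 on I. Neighbouring clec genes can be near copies, and reads that aligned to more than 1 place, 13.2% to 22.7% of the reads in the authors' totals, were kept out of all gene counts.

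The replicate 1 libraries differed from the others in which clec genes they held. Of the 85 clec genes with a mean of at least 1 CPM, 10 were higher in replicate 1 than the mean of replicates 2 to 4 by more than 1 on the log2(CPM + 1) scale in all 3 strains, or 11.8%, against 14.8% of 12725 genes at that level. Lower by more than 1 in all 3 strains were 13, or 15.3%, against 9.23% of all genes. The genes furthest up were clec-88, clec-87, clec-223, clec-91 and clec-222. clec-87 stood at 824 CPM in N2 replicate 1 and at 3.56, 5.73 and 5.06 CPM in the other N2 libraries. In X-V it stood at 965 CPM against 7.01, 6.98 and 3.66, and in X-II at 403 CPM against 5.51, 7.28 and 6.17. Replicate 1 was thus far above the other libraries in each strain, as it was for the yolk and germline genes. clec-88 was likewise highest in replicate 1, with 565, 492 and 130 CPM in replicate 1 of N2, X-V and X-II and at most 4.52 CPM in the other 9 libraries. clec-222 and clec-223, neighbours on V, reached 10.6 to 13.1 CPM and 50.3 to 106 CPM in replicate 1 and at most 0.527 CPM elsewhere, and neither passed the filter on counts.

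The genes furthest down in replicate 1 were clec-17, clec-72, clec-42, clec-64 and clec-10. clec-17 was at 6.94 CPM in N2 replicate 1 against 67.1 to 88.0 in the other N2 libraries, at 6.01 against 39.9 to 83.9 in X-V and at 13.6 against 36.6 to 194 in X-II. clec-72 was at 11.2, 16.5 and 30.0 CPM in replicate 1 of N2, X-V and X-II, against 83.4 to 184 CPM in the other libraries. The 5 genes were detected in every library and were lower in the replicate 1 library of each strain without overlap. These differences are a description, because replicate 1 was not set apart by any label.

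**Figure D2:**
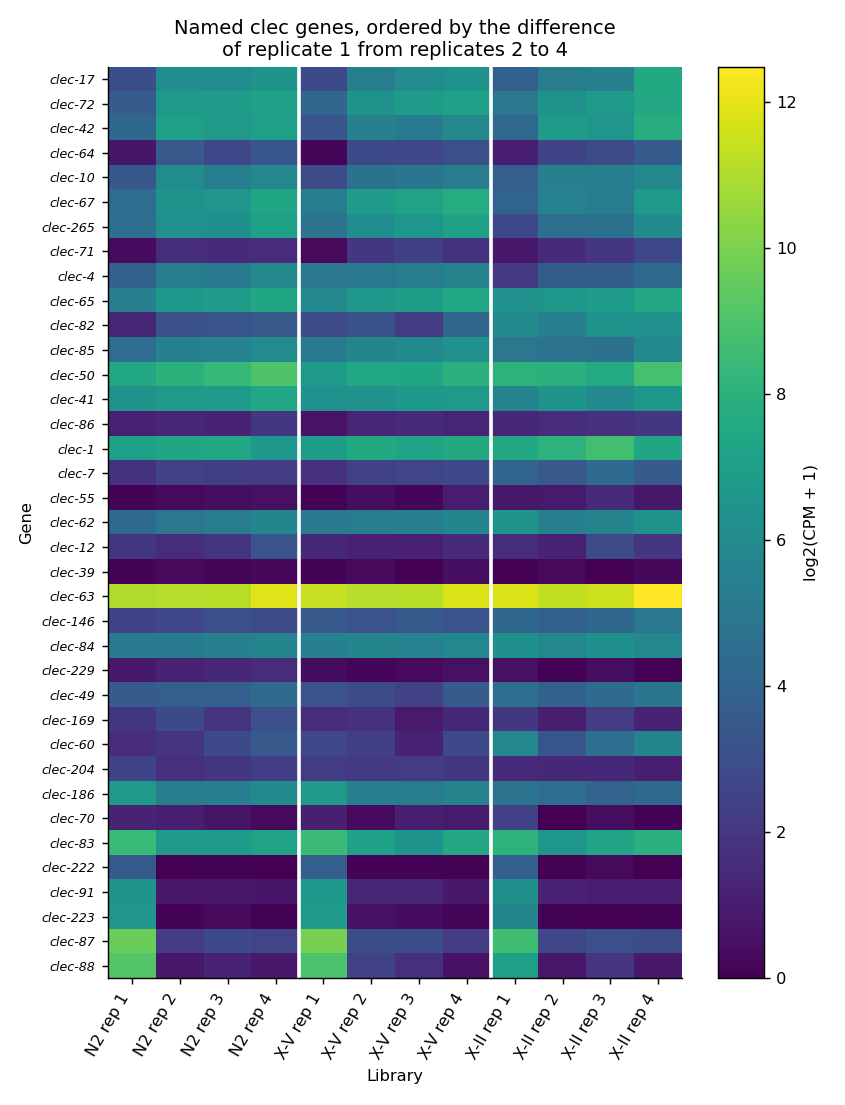
Level of each named clec gene (rows) in each of the 12 libraries (columns, in the order N2, X-V, X-II with white lines between strains), as log2(CPM + 1) from dark purple at 0 to yellow at the top of the scale. Rows are ordered by the difference of replicate 1 from replicates 2 to 4, so that clec-17 and clec-72 at the top are dark in replicate 1 and clec-87 and clec-88 at the bottom are bright in it.

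In X-V against N2 no clec gene passed the test. edgeR's quasi-likelihood test, fitted over 13186 genes with Benjamini-Hochberg adjustment at 0.05, called 0 of the 93 tested clec genes, and its background was 0% of all genes. With the replicate number as a block it called 0 of 93, against 0.0683% of all genes, and DESeq2 called 0. An unadjusted p under 0.05 was reached without the block by 6 of the 93 clec genes and by 206 of all 13186 genes. Values above 0 on the log2 fold change scale were found for 40 of 93 genes, with a median of -0.06, and the median over all genes was 0.01. The gene nearest the threshold in the fit with the block was clec-52 on IV, at 4.28, 7.85, 24.2 and 33.1 CPM in N2 and 28.3, 58.2, 65.2 and 88.1 CPM in X-V. Each X-V library was above the N2 library of the same number, but the strains overlapped. Its log2 fold change was 2.02 ± 0.32 (SE) with the block, at an adjusted p of 0.0574 by edgeR's quasi-likelihood test, and over the 16 alternative settings the adjusted p ranged from 0.0574 to 1. Without the block clec-229, whose levels are given with X-II, had the smallest unadjusted p among the clec genes, at 0.00374.

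Some clec genes separated X-V from N2 over all 8 libraries without passing the test. Lower in all X-V libraries than in any N2 library were 6 of 93, or 6.45%, against 0.607% of all tested genes: clec-12, clec-24, clec-49, clec-80, clec-169 and clec-229. Higher without overlap was 1, clec-146, or 1.08%, against 0.645% of all genes. clec-49, which protects worms against the bacterium Serratia marcescens, stood at 11.5, 12.6, 12.2 and 18.9 CPM in N2 and at 8.06, 6.25, 4.52 and 11.3 CPM in X-V. The highest X-V library was thus just under the lowest N2 library, and the log2 fold change of -0.86 ± 0.40 (SE) had an adjusted p of 1 by edgeR. clec-169 was at 3.03, 6.07, 2.86 and 7.27 CPM in N2 and at 2.06, 2.41, 0.867 and 1.62 CPM in X-V, with a log2 fold change of -1.41 ± 0.50. In replicates 2 to 4 alone, lower without overlap were 17 of 93 clec genes, or 18.3%, against 8.73% of all genes, and higher were 6, or 6.45%, against 6% of all genes.

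The clec genes of chromosome V, which is joined to X in X-V, were set against the rest of that chromosome. Of the 31 tested clec genes on V, 21 were below 0 in X-V against N2, with a median log2 fold change of -0.39, whereas 1371 of all 2636 tested genes on V were below 0 and their median was -0.01. Of these 21 genes, 15 lay near the right end of V. Among the 500 tested genes nearest the right end were 17 clec genes, 15 of them below 0, with a median of -0.87, beside a median of -0.22 over all 500 genes. In the next 500 genes 4 of 8 clec genes were below 0, with a median of -0.16 beside 0.03 over all genes there. Within the first 500 genes the medians of all genes in successive groups of 100 were -0.52, -0.39, -0.18, -0.06 and 0.07. Apart from clec-258, clec-50 and clec-49, the 17 clec genes lay at the 259th gene or beyond. The median of -0.22 is therefore not their local background. The clec gene nearest that end, clec-258, was the 118th tested gene from it, and near the left end clec-204 and clec-205 stood at -0.08 and 0.17. The stretch was picked with its values known, and edgeR called none of the 17 genes in X-V against N2.

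The 17 genes of the right arm of V included both well expressed and rare transcripts. clec-42, which protects worms against Bacillus thuringiensis, was at 17.7, 132, 102 and 131 CPM in N2, at 9.13, 42.5, 34.6 and 57.7 CPM in X-V and at 18, 117, 90.8 and 217 CPM in X-II. Within each replicate number X-V was the lowest strain, and replicate 1 was low in all 3. The log2 fold change in X-V against N2 was -1.37 ± 0.73 (SE) without the block and -1.33 ± 0.28 with it, at adjusted p of 1 and 0.298 by edgeR, in a range of 0.298 to 1 over the 16 alternatives. clec-50, the most abundant of the 17 per kilobase, was at 172, 261, 326 and 521 CPM in N2 and at 112, 181, 168 and 253 CPM in X-V, a log2 fold change of -0.83 ± 0.39, with each X-V library below the N2 library of its number. clec-24, in the long run of clec genes on V, was at 0.591, 1.05, 0.656 and 1.09 CPM in N2, at 0.0823, 0.301, 0 and 0.369 CPM in X-V and at 1.18, 1.74, 1.34 and 1.51 CPM in X-II. Its 3 strains did not overlap, although 1 count is worth 0.0320 to 0.121 CPM in these libraries, so that each X-V value rests on few counts. The exceptions above 0 were clec-233 at 0.66 and clec-37 at 0.17.

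Counted by replicate number, 14, 16, 13 and 12 of the 17 genes were lower in the X-V library than in the N2 library of replicates 1 to 4, with median differences of -0.47, -0.66, -0.69 and -0.24 on the log2(CPM + 1) scale. The number below 0 was between 14 and 16 of 17 when any 1 library was left out and 15 of 17 in replicates 2 to 4 alone. These counts reuse the libraries in which the stretch was picked, and many of the 17 genes are near neighbours. They are therefore a description and no separate support. In X-II against N2 the same 17 genes had a median of 0.48, with 13 above 0, beside a median of 0.30 over the 500 genes of that stretch. The 4 below 0 were clec-26 at -0.14, clec-230 at -1.04, clec-47 at -2.52 and clec-229 at -2.67. All of these were also below 0 in X-V against N2. Without X-II replicate 4 the median of the 17 genes in X-II against N2 was -0.01, and without N2 replicate 1 it was 0.05. In X-V against X-II the 17 genes had a median of -0.92, with 13 below 0, beside -0.49 over the 500 genes, and without X-II replicate 4 the median was -0.50. The comparisons share libraries, so their values are set side by side only.

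**Figure D3:**
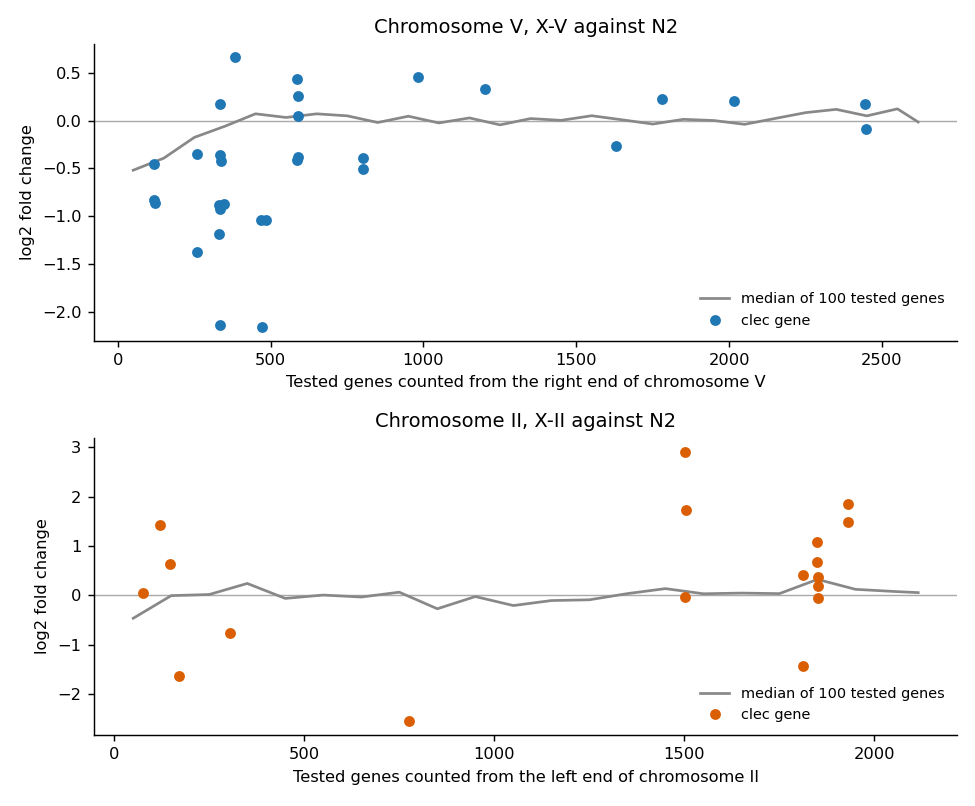
Log2 fold change of each tested clec gene (points) and the median of successive groups of 100 tested genes (grey line) against position, counted in tested genes from the right end of chromosome V for X-V against N2 (top) and from the left end of chromosome II for X-II against N2 (bottom). In the top panel 15 of the 17 clec genes within 500 genes of the end lie below 0, with a median of -0.87.

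In X-II against N2, clec-7 and clec-82 passed the test, both higher in X-II. They were 2 of 93 tested clec genes, or 2.15%, against a background of 0.159% of all tested genes called higher and 0.22% called in either direction. clec-7, on chromosome V and among the clec genes linked to pathogen responses, stood at 2.58, 4.53, 4.06 and 3.78 CPM in N2 and at 15.8, 10.2, 19.8 and 10.9 CPM in X-II. X-V was close to N2 at 2.39, 4.37, 5.11 and 5.69 CPM. All 4 X-II libraries were at least at 10.2 CPM and no other library was above 5.69 CPM. In X-II against N2 this gave a log2 fold change of 1.98 ± 0.29 (SE), with an adjusted p of 0.0182 by edgeR's quasi-likelihood test.

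clec-82, in a run of 4 on chromosome IV, had the larger fold. It was at 1.48, 7.45, 8.59 and 10.1 CPM in N2, at 6.58, 7.76, 3.65 and 16.6 CPM in X-V and at 62.2, 41.5, 82.7 and 79.9 CPM in X-II. The lowest X-II library was above every library of N2 and X-V. This gave a log2 fold change of 3.45 ± 0.56 (SE), with an adjusted p of 0.0314 by edgeR. Both calls were lost when most single libraries were left out. clec-7 then passed only without X-II replicate 2, with adjusted p from 0.0395 to 0.15 over the 8 omissions, and clec-82 passed only without N2 replicate 1, with adjusted p from 0.0420 to 0.203, while the log2 fold changes stayed between 1.83 and 2.02 and between 3.06 and 3.59. In replicates 2 to 4 alone the adjusted p were 0.0155 and 0.0247.

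Same-numbered libraries deviated together, so the fit with the replicate number as a block is given beside the first. Replicate 1 stood apart in every strain, so this cannot show that replicates 2 to 4 are paired by number. With the block, edgeR called 11 of 93 clec genes in X-II against N2, or 11.8%, against 5.2% of all genes. Higher in X-II were 7, or 7.53%, against 4.1% of all genes, and lower were 4, or 4.30%, against 1.1%. The 7 higher genes were clec-7, clec-60, clec-62, clec-82, clec-84, clec-145 and clec-146, and the 4 lower ones were clec-4, clec-186, clec-229 and clec-265. DESeq2 without the block called 6 of the 232 clec genes it tested, or 2.59%, against 1.93% of all genes, and edgeR on replicates 2 to 4 alone called 4 of 98, or 4.08%, against 1.01%. Over the 16 alternatives the 9 genes called with the block and not without it had adjusted p between 0.000408 and 1. Beside these calls, intestinal marker sums were also higher in X-II than in N2 in replicates 1, 3 and 4, and of the 10 intestinal markers tested cpr-1, a gut cysteine protease, and elt-7, an intestinal GATA factor, were called higher with the block. Sums of 10 epidermal markers were lower in X-II than in N2 in replicates 2, 3 and 4, at 1783, 2011 and 1868 CPM against 2333, 2592 and 3165 CPM, and higher in replicate 1, at 2224 against 1968 CPM. Of these markers mlt-10, a gene of the molting cycle, was called lower with the block. Its log2 fold change was -1.43 ± 0.26 (SE), with an adjusted p of 0.0122 by edgeR. In that fit 5 of the 10 epidermal markers were above 0, and their median was -0.15. X-V was also below N2 in this sum in each replicate number, at 1600, 2028, 1619 and 2595 CPM. The mean of mlt-10 was 433 CPM in N2, 245 CPM in X-V and 152 CPM in X-II. The part of such differences in the clec results was not tested.

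**Figure D4:**
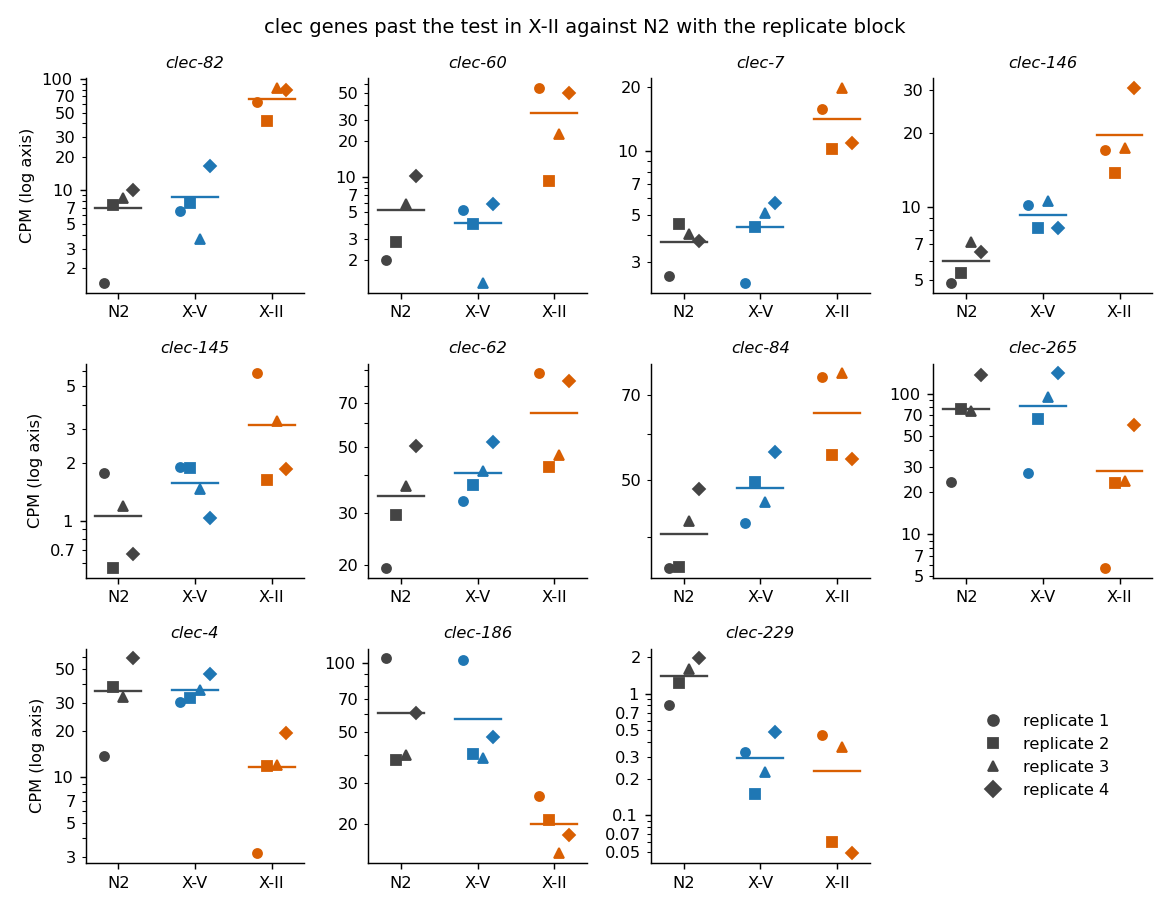
Level in CPM (vertical axes, logarithmic, each gene with its own range) of the 11 clec genes called in X-II against N2 with the replicate block, in N2, X-V and X-II. Symbols mark the 4 replicate numbers and short lines the mean of 4 libraries. The 4 X-II libraries of clec-7, clec-82, clec-84 and clec-146 lie above all N2 libraries, and those of clec-186 and clec-229 below.

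Of the genes called higher with the block, clec-60 had the largest fold after clec-82. It is induced when worms are infected with Staphylococcus aureus or Microbacterium nematophilum. It stood at 1.99, 2.83, 5.85 and 10.2 CPM in N2, at 5.27, 3.99, 1.28 and 5.83 CPM in X-V and at 55.4, 9.17, 22.9 and 50.7 CPM in X-II. X-II was the highest strain in each replicate number, although its replicate 2 was below N2 replicate 4. The log2 fold change was 2.67 ± 0.50 (SE) with the block at an adjusted p of 0.0135 by edgeR, and 2.91 ± 0.73 without it at 0.161, in a range of 0.00232 to 0.501 over the alternatives. Its neighbour clec-61 was at 1.11, 1.62, 4.48 and 3.23 CPM in N2 and 8.92, 1.98, 6.07 and 12.9 CPM in X-II, with a log2 fold change of 1.49 ± 0.47 and an adjusted p of 0.0901 with the block. Each X-II library of clec-61 was also above the N2 library of its number.

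clec-145 and clec-146 are neighbours on chromosome II. clec-146 was at 4.87, 5.34, 7.16 and 6.53 CPM in N2, at 10.1, 8.21, 10.6 and 8.16 CPM in X-V and at 17.1, 13.7, 17.4 and 30.5 CPM in X-II. The 3 strains did not overlap, with N2 lowest and X-II highest. Against N2 the log2 fold change with the block was 1.78 ± 0.32 (SE) in X-II, at an adjusted p of 0.0121 by edgeR, and 0.69 ± 0.31 in X-V, at 0.964. clec-145 was less abundant, at 1.77, 0.567, 1.19 and 0.672 CPM in N2 and 5.83, 1.62, 3.28 and 1.85 CPM in X-II, with a log2 fold change of 1.54 ± 0.37 and an adjusted p of 0.0354 with the block. Its strains overlapped, and each X-II library was above the N2 library of its number.

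In the run clec-62 to clec-66 on II, clec-62 was the gene called. It was at 19.6, 29.5, 36.9 and 50.0 CPM in N2 and at 88.0, 42.6, 46.7 and 82.6 CPM in X-II, with a log2 fold change of 1.00 ± 0.23 (SE) and an adjusted p of 0.0332 with the block. The X-II libraries overlapped those of N2 but each was above the N2 library of its number. clec-63, the dominant gene of the family, was at 2022, 2176, 2247 and 3742 CPM in N2, at 2653, 2208, 2259 and 3472 CPM in X-V and at 3573, 2623, 2959 and 5755 CPM in X-II. Each X-II library was again above the N2 library of its number, with a log2 fold change of 0.59 ± 0.23 and an adjusted p of 0.155 with the block. clec-64, clec-65 and clec-66 had log2 fold changes of 0.13, 0.34 and -0.11 in that fit, so neighbours in 1 run had different values.

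The run clec-82 to clec-85 on IV was as mixed. clec-84 was at 35.4, 35.5, 42.6 and 48.4 CPM in N2 and at 75.3, 55.3, 76.4 and 54.5 CPM in X-II, without overlap, with a log2 fold change of 0.73 ± 0.16 (SE) and an adjusted p of 0.0298 with the block. clec-83, in the same run, was at 105 to 355 CPM in N2 and at 93.7 to 270 CPM in X-II, with a log2 fold change of 0.26 ± 0.32 with the block. clec-85, a published target of the p38 pathway, was at 21.1, 41.8, 45.4 and 64.6 CPM in N2 and at 29.9, 26.4, 23.9 and 62.2 CPM in X-II, with a log2 fold change of -0.20 ± 0.24. The strains overlapped for both clec-83 and clec-85.

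The 4 clec genes called lower in X-II with the block were on 4 different chromosomes. clec-186, on IV, was at 105, 37.8, 39.7 and 61.1 CPM in N2, at 103, 40.2, 38.8 and 47.6 CPM in X-V and at 26.4, 20.9, 14.9 and 18 CPM in X-II. All X-II libraries were below every N2 and X-V library. The log2 fold change against N2 was -1.43 ± 0.26 (SE), with an adjusted p of 0.0134 by edgeR with the block. clec-265, on X, was at 23.6, 78.4, 75.2 and 135 CPM in N2 and at 5.74, 23.2, 23.8 and 60.2 CPM in X-II, with a log2 fold change of -1.54 ± 0.29 and an adjusted p of 0.0139. clec-4, on II and among the clec genes linked to pathogen responses, was at 13.7, 38.5, 32.8 and 58.8 CPM in N2 and at 3.19, 11.7, 12 and 19.4 CPM in X-II, with -1.55 ± 0.35 and an adjusted p of 0.0300. The strains overlapped for clec-265 and clec-4, where replicate 1 was the lowest library in both, but X-II was below N2 in each replicate number.

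clec-229, on V, was rare and was lower in both fusion strains. It was at 0.812, 1.21, 1.61 and 1.95 CPM in N2, at 0.329, 0.151, 0.228 and 0.480 CPM in X-V and at 0.455, 0.0599, 0.364 and 0.0486 CPM in X-II. Every N2 library was above every fusion library. With the block the log2 fold change was -2.79 ± 0.59 (SE) in X-II against N2, at an adjusted p of 0.0243 by edgeR, and -2.23 ± 0.53 in X-V against N2, at 0.385. The fusion libraries hold few counts of this gene.

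Over all 93 tested clec genes the X-II changes went in both directions. Above 0 were 55 genes, with a median of 0.14 beside 0.03 over all genes, and without X-II replicate 4 the median was -0.20. With the size factors of DESeq2 it was 0.04, where the median of all genes moved by -0.10. On chromosome II, which is joined to X in X-II, 12 of 18 tested clec genes were above 0, with a median of 0.39 beside 0.01 over all 2130 tested genes of II, and 5 of the 18 were called with the block, where 5.2% of all tested genes were. These were clec-60, clec-62, clec-145 and clec-146, which were higher, and clec-4, which was lower. The 5 tested clec genes among the 500 genes nearest the left end of II had a median of 0.04, and 12 between the 1501st and the 2000th tested gene from that end had a median of 0.54, with 9 above 0.

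Groups that did not overlap were counted in this comparison too. Higher in all X-II libraries than in any N2 library were 6 of 93 clec genes, or 6.45%, against 2.7% of all tested genes, and lower were 3, or 3.23%, against 1.51%. In replicates 2 to 4 alone the order of the directions turned, with 11 higher, or 11.8%, against 7.26% of all genes, and 16 lower, or 17.2%, against 12.3%. Beside the genes described, clec-204 on V was lower without overlap, at 4.65, 2.19, 2.98 and 3.97 CPM in N2 and 1.82, 1.68, 1.70 and 1.07 CPM in X-II. Its log2 fold change was -1.11 ± 0.32 (SE) with the block, at an adjusted p of 0.0715 by edgeR. clec-55 was higher without overlap, with 0.0739 to 0.480 CPM in N2 and 0.729 to 1.82 CPM in X-II, a log2 fold change of 1.99 ± 0.59 and an adjusted p of 0.0755 with the block. clec-24 was the other higher gene outside the calls, as its levels given above show.

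The comparison of X-V with X-II tests whether the fusion strains differ from each other, which is also the difference of their effects against N2. Without the block clec-7 was called, lower in X-V, with a log2 fold change of -1.75 ± 0.29 (SE) and an adjusted p of 0.0397 by edgeR. It was 1 of 93 clec genes, or 1.08%, against 0.121% of all genes called lower and 0.182% in either direction, and the call was lost whichever of the 8 libraries was left out, with adjusted p from 0.0535 to 0.277. With the block 12 of 93 were called, or 12.9%, against 1.83% of all genes. Lower in X-V were 8, or 8.60%, against 1.33%, and higher were 4, or 4.30%, against 0.501%.

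The 8 genes lower in X-V than in X-II with the block were clec-7, clec-24, clec-28, clec-33, clec-42, clec-49, clec-60 and clec-82. Of these, clec-24, clec-28, clec-33, clec-42 and clec-49 are among the 17 genes of the right arm of V. clec-49 was at 22.8, 13.8, 19.9 and 29.3 CPM in X-II, the lowest of these above every X-V library and all but 1 N2 library, with a log2 fold change in X-V against X-II of -1.58 ± 0.22 (SE) and an adjusted p of 0.00557. clec-42 gave -1.52 ± 0.28 at 0.0218, and clec-24 gave -3.11 ± 0.56 at 0.0209. Over the 16 alternatives the 11 genes called with the block and not without it, in either direction, had adjusted p between 9.51e-07 and 1.

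The 4 genes higher in X-V than in X-II with the block were clec-4, clec-67, clec-186 and clec-265. clec-67, a published target of the p38 pathway in the long run on IV, was at 38.3, 114, 146 and 213 CPM in X-V, at 20.9, 81.9, 90.2 and 167 CPM in N2 and at 15.4, 44.9, 37.5 and 108 CPM in X-II. In each replicate number X-V was highest and X-II lowest, while the strains overlapped across numbers. The log2 fold change in X-V against X-II was 1.35 ± 0.24 (SE), with an adjusted p of 0.0187 by edgeR with the block. clec-76, in the same run, was called by edgeR without replicate 1 but not over all 12 libraries, where DESeq2 called it in X-V against X-II, and was named after its values were seen. It was at 5.59, 18, 13.7 and 18.4 CPM in X-V, at 2.95, 17.9, 10.3 and 7.78 CPM in N2 and at 6.10, 1.98, 3.76 and 1.36 CPM in X-II. In replicates 2 to 4 X-II lay below both other strains, while in replicate 1 it was the highest. On replicates 2 to 4 alone its log2 fold change was 2.82 in X-V against X-II, at an adjusted p of 0.0115 by edgeR, and -2.30 in X-II against N2, at 0.0228. Over the 16 alternatives the adjusted p ranged from 0.00414 to 0.932 and from 0.0228 to 0.798. The median of the 93 genes was -0.26 in X-V against X-II, and -0.03 without X-II replicate 4.

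The clec genes linked to pathogens formed a list of 13, of which all but clec-39 were tested. clec-39, which protects worms against Serratia marcescens, had at most 0.443 CPM in any library. In X-II against N2 the list had 1 gene higher without the block, clec-7, and with it clec-7 and clec-60 higher and clec-4 lower. The shares of all tested genes were 0.159% higher without the block, and 4.1% higher and 1.1% lower with it. The median log2 fold change was 0.48 without the block, with 8 of 12 above 0, beside 0.03 over all genes. In X-V against N2 0 of 12 were called in either fit, with a median of -0.09. Of all tested genes 0% were called there without the block and 0.0683% with it. clec-41, which like clec-42 protects against Bacillus thuringiensis, was at 85.4 to 178 CPM in N2, 77.8 to 104.4 CPM in X-V and 48.4 to 100 CPM in X-II, and both fusion strains were below N2 in each replicate number. Its log2 fold changes with the block were -0.33 ± 0.25 (SE) in X-V and -0.65 ± 0.25 in X-II, at adjusted p of 1 and 0.154 by edgeR.

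Regulators upstream of clec genes were listed separately. The p38 pathway list, with tir-1, nsy-1, sek-1, pmk-1 and atf-7 among its 12 genes, had 0 of 12 called in X-II against N2 and in X-V against N2, with and without the block, and medians of 0.07 and 0.04. The DBL-1 list had 0 of 8 called in the same fits. Of 11 transcription factors of intestinal immunity 0 were called without the block, and 2 were higher in X-II with it. These were elt-7 at 0.80 ± 0.19 (SE) and an adjusted p of 0.0325, and zip-2, a bZIP factor of the pathogen response, at 0.83 ± 0.21 and 0.0439. zip-2 was at 347, 894, 910 and 697 CPM in N2 and 634, 1620, 1424 and 1144 CPM in X-II, and was higher in X-II in each replicate number.

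Other secreted immune effectors had a larger median change in X-II than the clec genes. Of 65 listed genes, among them lysozymes, caenacins and antimicrobial neuropeptide-like peptides, 43 were tested, and 3 were called higher without the block, the caenacins cnc-2, cnc-4 and cnc-6. The share of all tested genes called higher in that fit was 0.159%. With the block 17 were higher and 1, the lysozyme gene lys-2, was lower, where 4.1% and 1.1% of all genes were called. The median log2 fold change was 1.12 without the block, with 36 of 43 above 0, beside 0.14 for the clec genes and 0.03 over all genes. cnc-4 was at 1.48, 5.83, 7.58 and 5.38 CPM in N2 and at 24.5, 39.7, 44.2 and 51.7 CPM in X-II, a log2 fold change of 3.17 ± 0.47 (SE) at an adjusted p of 0.0182 by edgeR. The difference between the lists was not tested. In X-V against N2 0 of the 43 were called with or without the block, where 0.0683% and 0% of all tested genes were.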

How the data were processed

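RNA was counted per gene in 12 libraries of N2, X-V and X-II worms. The authors deposited raw read counts per gene, 1 file per library, which were used as deposited. The submitters' processing notes name TopHat2 2.1.1, SAMtools 1.6 and HTSeq among their tools, while genome build, annotation release and strand setting are not stated there or in the labels. Rows that name no gene stayed out of library sizes: reads in no feature were 2.48% to 4.25% of the totals and ambiguous reads 0.656% to 0.893%. Symbols were matched through RefSeq's WBcel235 gene table for 19879 of 20389 identifiers, and 1 further gene is not reported here. CPM (counts-per-million) are relative to all counts assigned to genes.

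Tests used edgeR 4.0.16 (quasi-likelihood, TMM, filterByExpr, strain as the only term, all 12 libraries) in R 4.3.3, adjusted by Benjamini-Hochberg over 13186 genes at 0.05, two-sided, and the fitting was tested on simulated data. Deviations of same-numbered libraries from their strain means correlated at 0.319 to 0.942, all above 0.1. The replicate number was therefore taken to pair libraries, and the block fit stands beside the main one. The means include replicate 1, which stood apart in every strain, and libraries of different number were not correlated. The check therefore cannot show that replicates 2 to 4 are paired by number. The numbers come from the sample titles. P-values measure the spread between these libraries, which may be technical. No 2 libraries of the same strain agreed within sampling noise, and libraries of different strains were not compared in this way. Alternatives were DESeq2 1.42.0, its size factors in edgeR, other filters, the block, replicates 2 to 4 alone, 2 strains alone and leaving out each library.

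The members and lists were chosen with earlier results of these data known. Named genes were those called without the block, the first 10 by adjusted p called with it in each comparison with N2, the 10 highest by mean CPM, the 4 largest changes each way without overlap in each comparison with N2, the pathogen list and the 5 genes furthest up and down in replicate 1. Genes named beyond these were chosen after their values were seen. Protein and promoter sequences were not used here.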

Additional observations from a re-analysis of the deposited data

Results flagged for a closer look

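Among 114 groups of 4 libraries, the 37 named clec genes and the clec sum in 3 strains, 24 (21.1%) had 1 library far from the other 3 by Dixon's criterion. Some genes, among them clec-87, clec-88, clec-91, clec-222 and clec-223, were named for their replicate 1 difference. The criterion was applied to CPM without a log scale. For both reasons the share of flagged groups cannot be compared with a chance rate. Replicate 1 was the distant library in 19 of the 24 groups. clec-87 stood out in replicate 1 of N2, X-V and X-II at 824, 965 and 403 CPM, and clec-88 at 565, 492 and 130 CPM. clec-91 did so at 87.6, 100 and 73.0 CPM, clec-223 at 89.4, 106 and 50.3 CPM and clec-222 at 10.6, 12.7 and 13.1 CPM. In single strains, replicate 1 was highest for clec-186 in X-V at 103 CPM, clec-83 in N2 at 355 CPM and clec-70 in X-II at 4.28 CPM, and lowest for clec-71 in N2 at 0.295 CPM.

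The remaining 5 distant libraries were replicate 4 of N2 for clec-63 at 3742 CPM and for clec-49 at 18.9 CPM, replicate 4 of X-II for clec-17 at 194 CPM and for clec-85 at 62.2 CPM, and replicate 3 of X-II for clec-55 at 1.82 CPM. The level of clec-7 differed between the fusion strains, with a log2 fold change of -1.75 in X-V against X-II by edgeR's quasi-likelihood test. That call was lost whichever of the 8 libraries was left out, with adjusted p from 0.0535 to 0.277 by the same test.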

How the results depend on the processing

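The fit with the replicate number as a block, which pairs same-numbered libraries, called 0 clec genes in X-V against N2, 11 in X-II against N2 and 12 in X-V against X-II, where the fit without it called 0, 2 and 1. For X-II against N2 the count was 0 with no filter on low counts and with the 2 strains alone, 6 with DESeq2, 4 in replicates 2 to 4 alone, 6 in these with the block, and 0 to 1 when a library was left out. For X-V against X-II it was 0 with no filter and with the 2 strains alone, 6 with DESeq2, 3 in replicates 2 to 4 alone, 5 in these with the block, and 0 when a library was left out. Those 5 genes, clec-4, clec-42, clec-49, clec-76 and clec-82, did not include clec-7, the gene called in the fit without the block, and clec-76 was among those called by DESeq2. For X-V against N2 it was 0 under each of the 16 alternatives. DESeq2 and the fit with no filter tested 232 clec genes among 19597 genes, and replicates 2 to 4 alone tested 98 among 13299. Over all genes in X-II against N2, DESeq2 called 379, replicates 2 to 4 alone 134 and these with the block 160. In X-V against X-II the same fits called 202, 74 and 69 genes, and in X-V against N2 17, 2 and 1. In the same order of comparisons, the fit with no filter called 16, 17 and 0 genes, and the 2 strains alone 6, 8 and 0. Leaving out a library gave 4 to 27, 3 to 18 and 0 to 1 genes.

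The median log2 fold change of the clec genes in X-V against N2 was -0.06, and it was -0.11 with the size factors of DESeq2, 0.0024 with no filter, 0 with DESeq2 and -0.19 to -0.0017 when a library was left out. When a library was left out it was -0.20 to 0.22 in X-II against N2 and -0.32 to -0.031 in X-V against X-II. Single genes were followed for 30 results, those called in either fit or named for not overlapping. Of their 476 alternative values, 410 kept direction and side of the threshold, 29 were no longer past it, 37 were newly past it and 0 changed sign. These results were chosen in the same data, so a steady sign is no separate support. Other named genes did change sign, such as clec-42 in X-II against N2, from -0.40 to 0.72, and clec-186 in X-V against N2, from -0.79 to 0.54. Leave-one-out fits have 3 libraries in 1 strain. The cause of these changes was not tested. Of the untested members with counts, 89 had fewer than 20 counts over all libraries and 50 had 20 or more. The part of depth in this was not tested.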

Other observations

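Among the clec genes below the filter, 2 were chosen after their values were seen. clec-15, on chromosome I, had 0, 4, 17 and 51 counts in N2, 0, 8, 0 and 48 counts in X-V and 0 counts in all 4 X-II libraries. Pooled over libraries, N2 was at 0.975 CPM, at least 18.3-fold higher than X-II taken at a floor of 3 counts over its 4 libraries, and replicate 4 supplied most of the N2 and X-V counts. clec-45, on chromosome V, had 1, 33, 9 and 117 counts in N2, 0, 9, 14 and 13 in X-V and 0, 7, 1 and 4 in X-II, so that N2 replicates 2 and 4 held 150 of its 208 counts.

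X-V replicate 4 had counts for 210 clec genes, the most of any library, where N2 replicate 4, the deepest library, had counts for 174. Of these genes, 18 were counted in X-V replicate 4 alone, with at most 5 counts each.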
